A study of Nothobranchius furzeri with 30 samples.

Results

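Selective autophagy receptors are described here in the ageing retina of the African turquoise killifish, together with the loci that carry the name of one of them, optineurin. The members were taken by gene name from the annotation deposited with the data. They are OPTN (optineurin), ZC3HDC1L (the locus that the study shows as optn), SQSTM1 (p62), TAX1BP1A, TAX1BP1B, NBR1, CALCOCO1, CALCOCO2 (also called NDP52) and TBK1. These names matched 10 of the 24989 loci counted in each sample, since 2 loci carry the name CALCOCO2, and the rule itself uses names, not values. Of the 10 loci, 9 had enough counts to be tested.

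Selective autophagy removes particular cargo, such as protein aggregates, damaged mitochondria or bacteria, by enclosing it in a membrane that later fuses with the lysosome. The receptors hold on to the cargo, often through ubiquitin chains attached to it, and bind proteins of the ATG8 family on the growing membrane. TBK1 is a kinase that phosphorylates several of the receptors, optineurin and p62 among them, and it also acts in the pathway that leads from viral nucleic acid to interferon. In humans, variants of OPTN and extra copies of TBK1 are known causes of inherited glaucoma.

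The study compared retinas of ageing fish to find which transcripts change. Retinas of 30 untreated wild-type female fish of the inbred GRZ-AD strain were profiled, 10 each at 6 (young adult), 12 (middle-aged) and 18 weeks (old), and the left and right retina of a fish formed 1 sample, so that each replicate is a separate animal. The retinal pigment epithelium (RPE) was rinsed off at dissection. Libraries were made with QuantSeq, which reads the 3′ end of polyadenylated RNA, so transcript length does not enter a count, and levels are compared here between ages, not between genes.

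Each fish had between 3552371 and 5840792 counts on loci. Values per fish are given in CPM, counts brought to a common library size with TMM factors. The 2 most abundant loci held on average 43.0% of the counts at 6 weeks, 38.5% at 12 weeks and 30.8% at 18 weeks, so the scaling bears on every comparison of ages. With TMM factors the median log2FC of all 13975 tested loci was 0.02 at 18 against 6 weeks, and with library size alone it was 0.32. Rod markers, which define the neural retina, summed to between 14218 and 22384 CPM at 18 weeks and between 14583 and 18917 CPM at 6 weeks. Markers of some other cells moved with age. They are counted here at an FDR under 0.05 in the edgeR fit described below. Of all tested loci, 14.0% were higher and 15.2% lower at 18 against 6 weeks by that rule. Cone markers were lower at 18 weeks in 4 of 5 loci, with a sum of 3709 to 5133 CPM at 18 weeks and 5895 to 9355 CPM at 6 weeks. Müller glia markers were higher in 3 of 5, with a sum of 977 to 1261 CPM at 18 weeks and 608 to 731 CPM at 6 weeks, and markers of proliferating cells were lower in 3 of 5. RPE markers were lower at 18 weeks in 8 of 10 tested loci, with a sum of 371 to 865 CPM at 18 weeks and 834 to 1714 CPM at 6 weeks, and immune cell markers were higher in 7 of 12, with a sum of 374 to 629 CPM at 18 weeks and 149 to 378 CPM at 6 weeks. Among the immune markers, the locus of TYROBP stood at 0 in every 18-week-old and 6-week-old fish. Of 9 ganglion cell markers 1 was higher and 1 lower, and of 5 bipolar cell markers 1 was higher and 1 lower. Of 11 horizontal and amacrine cell markers 3 were higher and 0 lower, and of 6 oligodendrocyte markers 2 were higher and 1 lower. Some fits below use a marker score, the mean log2 CPM of the tested loci of a list, as a covariate. The RPE score did not overlap between 6 weeks (lowest 5.07) and 18 weeks (highest 5.02). The immune score had medians of 2.40 at 6 weeks and 3.46 at 18 weeks, but 6-week-old fish 8 had 4.01, above every 18-week-old fish (at most 3.55). Such fits cannot separate age from the score, so the part of these markers in the members' results was not tested. In bulk retinas, fewer cells of a type cannot be told apart from less RNA per cell. For the RPE the study gives a further limit: it clung more firmly to young retinas and was harder to remove. The study proposes that more RPE may thus remain in young samples, and it draws no firm conclusion on RPE genes. Whether the RPE score used below follows tissue left at dissection was not tested.

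The library of 18-week-old fish 1 stood apart. It had the lowest share of reads on no feature (18.0%) and 1.85% ambiguous reads, against at most 1.27% in every other fish. Among the 18-week-old fish it had the highest levels of CALCOCO1 and TAX1BP1A and the lowest of TBK1, SQSTM1, OPTN and NBR1. Without it, 4 of 9 tested members were higher at 18 against 6 weeks in the fit described below, against 5 with it, and CALCOCO1 was the one lost.

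ZC3HDC1L and OPTN are separate loci. ZC3HDC1L is locus XLOC_004739, paired in the deposited annotation with RefSeq entry LOC107374900, and OPTN is locus XLOC_005472, paired with RefSeq gene optn. RefSeq places both genes on chromosome 1 with 12 protein-coding genes between them (assembly NfurGRZ-RIMD1, used here for names and gene order only). There, optn lies between ccdc3a and atp7b, and LOC107374900 between LOC107381870 and etv6. The name ZC3HDC1 is an older name of human PARP12, an interferon-induced enzyme that adds ADP-ribose to proteins. The study, which shows this locus as optn, states that names of genes past its thresholds were checked by hand. Some were changed to that of the nearest ortholog found with BLAST. The deposited annotation also gives the name PARP12A to a separate locus, XLOC_019354, named here after its values were seen. It had too few counts to be tested and averaged 1.15 CPM at 18 weeks and 0.49 CPM at 6 weeks. Which of the names fits the protein of XLOC_004739 was not tested, because no sequence was used here.

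At 18 against 6 weeks, 5 of the 9 tested members were higher at an FDR under 0.05 and none was lower (edgeR quasi-likelihood test, Benjamini-Hochberg adjustment over all tested loci). Of all tested loci, 14.0% were higher by the same rule and 15.2% lower. The 5 were ZC3HDC1L, SQSTM1, TBK1, TAX1BP1B and CALCOCO1. The median log2FC of the 9 was 0.27, against 0.02 for all tested loci. With TMM factors, ZC3HDC1L was the only member that also passed the study's threshold of an absolute log2FC of 1, which 1.31% of all tested loci passed upwards. With library size alone its log2FC was 1.79, the value that the study prints for optn, and SQSTM1 (1.27) passed the threshold too. The study picked ZC3HDC1L on these samples, and SQSTM1 is among the annotated loci of its table of changed genes, so their direction is not independent evidence. The 3 comparisons of ages share their fish, and each is given with its own values.

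**Figure D1:**
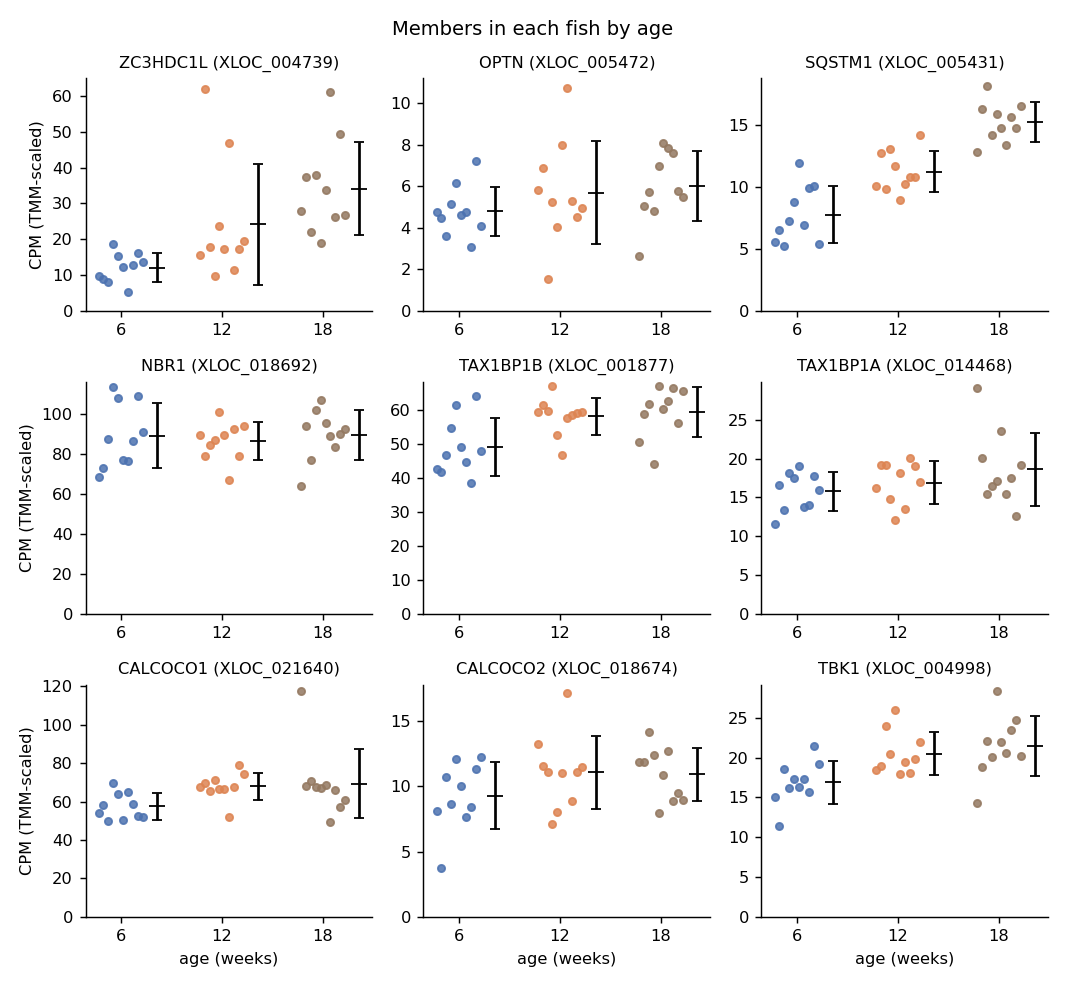
CPM of each of the 9 tested members (y axis, scaled with TMM factors) in each of 30 fish, by age in weeks (x axis); points are fish, and bars give the mean and SD of 10 fish. The 18-week-old fish lie above every 6-week-old fish for ZC3HDC1L (lowest 19.0 CPM at 18 weeks, highest 18.6 CPM at 6 weeks) and for SQSTM1 (12.8 and 11.9 CPM), while the ages overlap for the other 7.

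ZC3HDC1L transcript levels were highest in old retinas and spread widely among middle-aged ones. The lowest, median and highest fish had 5.24, 12.4 and 18.6 CPM at 6 weeks, 9.75, 17.5 and 62.2 CPM at 12 weeks, and 19.0, 30.8 and 61.1 CPM at 18 weeks. All 10 of the 18-week-old fish were above all 6-week-old fish, a separation upwards that 1.01% of tested loci showed. The log2FC at 18 against 6 weeks was 1.51 (SE 0.261, FDR 3.45e-05, edgeR), a 2.85-fold difference.

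The middle-aged fish did not form 1 level of ZC3HDC1L. Fish 2 had 62.2 CPM and fish 7 had 47.0 CPM, while the other 8 had between 9.75 and 23.6 CPM, and the SD at 12 weeks was 16.9 CPM around a mean of 24.1 CPM. At 12 against 6 weeks the log2FC was 1.0 (SE 0.267, FDR 0.0336, edgeR). It was 0.72 without fish 2 (FDR 0.113), 0.84 without fish 7 (FDR 0.0761) and 0.46 without both (FDR 0.296), in the same edgeR fit. The FDR was also over 0.05 without 6-week-old fish 1, 2, 3 or 7, between 0.0609 and 0.0685. At 18 against 12 weeks the log2FC was 0.51 (SE 0.246, FDR 0.176), and without both fish it was 1.05 (FDR 0.000723, edgeR). With all fish kept, the 12-week call was also lost with robust quasi-likelihood (FDR 0.0959). With the RPE score as a covariate the log2FC was 1.53 at 12 against 6 weeks (FDR 2.66e-06) and 1.09 at 18 against 12 weeks (FDR 0.000259, edgeR). With the immune score as a covariate the log2FC was 0.13 at 12 against 6 weeks (FDR 0.917, edgeR). With library size alone it was 0.69 at 18 against 12 weeks (FDR 0.0232, edgeR). The calls in both comparisons with 12 weeks thus changed with these fish and with the model. At 18 against 6 weeks the log2FC stayed between 1.37 and 1.59 in the 30 fits that left out 1 fish each. That call too changed with the model: the log2FC was 0.60 with the immune score (FDR 0.236) and 0.27 with the interferon score (FDR 0.316, edgeR).

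OPTN, the locus annotated as optineurin itself, had few counts, between 6 and 46 per fish. Its lowest, median and highest levels were 3.05, 4.70 and 7.22 CPM at 6 weeks, 1.51, 5.27 and 10.7 CPM at 12 weeks, and 2.64, 5.74 and 8.09 CPM at 18 weeks. The ages overlapped, with 3 of 10 old fish above every young fish and 1 below. The log2FC at 18 against 6 weeks was 0.32 with a 95% interval of -0.12 to 0.76 (FDR 0.275, edgeR), an interval that holds both no change and a rise. At 12 against 6 weeks it was 0.25 (FDR 0.663) and at 18 against 12 weeks 0.07 (FDR 0.864). Under library size alone the log2FC at 18 against 6 weeks was 0.62 (FDR 0.0132), and with the RPE marker score as a covariate it was 0.84 (FDR 0.0456, edgeR). With the immune marker score it was 0.14 (FDR 0.809), and with a score of interferon response loci, described below, -0.08 (FDR 0.873, edgeR).

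SQSTM1 encodes p62, a receptor that gathers ubiquitinated proteins into condensates and also binds KEAP1, the inhibitor of the antioxidant factor NRF2. SQSTM1 transcript levels increased at each age step. The lowest, median and highest fish had 5.25, 7.10 and 11.9 CPM at 6 weeks, 8.94, 10.8 and 14.3 CPM at 12 weeks, and 12.8, 15.2 and 18.2 CPM at 18 weeks. All 10 old fish were above all young fish, and 7 of 10 were above all middle-aged fish. The SD was 29.6% of the mean at 6 weeks, 14.8% at 12 weeks and 10.4% at 18 weeks. Median counts were 28.5, 48 and 78.5 in the same order. Counting error is relatively larger at low counts and was not separated here from the spread between fish. The log2FC was 0.97 at 18 against 6 weeks (SE 0.132, FDR 7.34e-07, edgeR), a 1.96-fold difference just under the threshold of 1. With library size alone it was 1.27 (FDR 1.64e-08) and passed the threshold, and so it did without 6-week-old fish 6, 8 or 9, with a log2FC of up to 1.06 (edgeR). With TMM factors and all fish it was 0.53 at 12 against 6 weeks (SE 0.136, FDR 0.0253) and 0.44 at 18 against 12 weeks (SE 0.127, FDR 0.0195, edgeR). With counts of 20 to 91 per fish, the steps are less certain than the whole span. Under covariates the FDR of the 12-week step was 0.111 (RPE score), 0.229 (immune score) and 0.0893 (interferon score), and that of the step to 18 weeks was 0.0606 with the RPE score (edgeR). The 12-week step had an FDR over 0.05 in 5 of 30 fits that left out 1 fish, those without 6-week-old fish 1, 3 or 10 or 12-week-old fish 4 or 10, the highest being 0.0604.

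**Figure D2:**
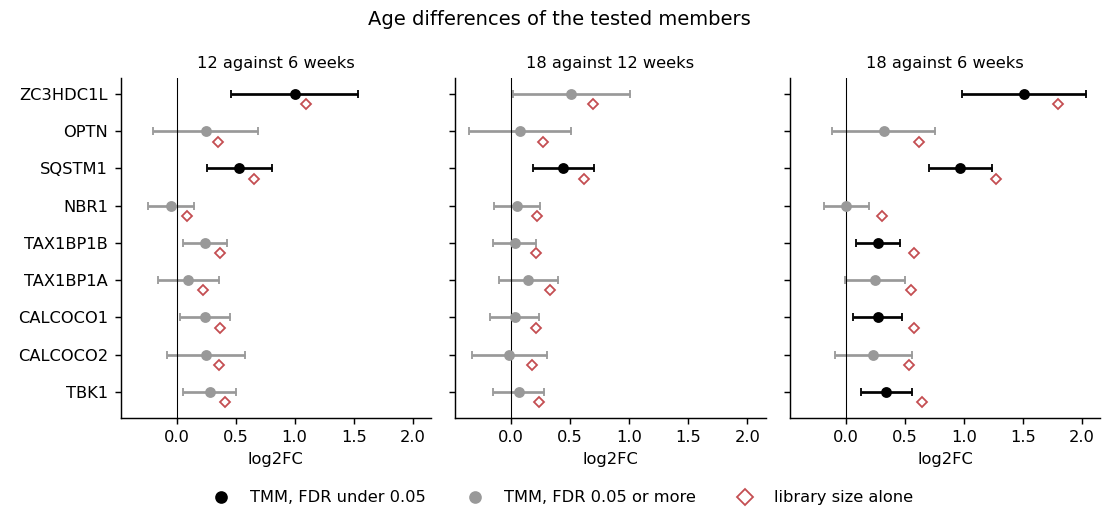
log2FC (x axis) of the 9 tested members (rows) at 12 against 6, 18 against 12 and 18 against 6 weeks; filled points and bars are the estimate and 95% interval with TMM factors, black where the FDR was under 0.05, and open diamonds are the estimate with library size alone. ZC3HDC1L (1.51) and SQSTM1 (0.97) stand farthest to the right at 18 against 6 weeks, NBR1 lies at 0.01, and library size alone places every member farther to the right.

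NBR1 is a receptor of the p62 type that binds ubiquitin and acts in the removal of protein aggregates and peroxisomes. Its ages overlapped widely. The lowest, median and highest fish had 68.6, 87.0 and 114 CPM at 6 weeks, 67.0, 88.3 and 101 CPM at 12 weeks, and 63.8, 91.1 and 107 CPM at 18 weeks. The log2FC at 18 against 6 weeks was 0.01 with a 95% interval of -0.19 to 0.20 (FDR 0.975, edgeR), with between 262 and 574 counts per fish. Under library size alone it was 0.31 (FDR 0.0181, edgeR), close to the 0.32 by which that scaling moved the median of all loci.

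TBK1 transcript levels were modestly higher in older retinas. The lowest, median and highest fish had 11.5, 16.8 and 21.4 CPM at 6 weeks, 17.9, 19.6 and 26.0 CPM at 12 weeks, and 14.3, 21.3 and 28.3 CPM at 18 weeks. Of the old fish, 5 of 10 were above every young fish. The log2FC at 18 against 6 weeks was 0.35 (SE 0.109, FDR 0.0149, edgeR), and those of the other steps were 0.28 at 12 against 6 weeks (FDR 0.195) and 0.07 at 18 against 12 weeks (FDR 0.740). With marker scores as covariates the 18-week log2FC was 0.26 for the RPE score (FDR 0.283), 0.40 for the immune score (FDR 0.0835) and 0.40 for the interferon score (FDR 0.0562, edgeR).

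TAX1BP1A and TAX1BP1B are the fish copies of TAX1BP1, a receptor that also restrains inflammatory signalling. TAX1BP1B had 38.3, 47.3 and 64.1 CPM in the lowest, median and highest fish at 6 weeks, 46.6, 59.1 and 66.8 CPM at 12 weeks, and 44.0, 60.9 and 66.9 CPM at 18 weeks. Its log2FC at 18 against 6 weeks was 0.27 (SE 0.0907, FDR 0.0213, edgeR). TAX1BP1A had a median of 16.3 and a highest level of 19.0 CPM at 6 weeks, 17.5 and 20.1 CPM at 12 weeks, and 17.3 and 29.0 CPM at 18 weeks, and its log2FC was 0.25 (SE 0.126, FDR 0.138) and 0.15 without 18-week-old fish 1, which had the 29.0 CPM (FDR 0.330, edgeR). The estimates of both copies were thus close, and only that of TAX1BP1B passed. The difference between the copies was not tested, and reads of near-identical stretches could be split between them. The log2FC of TAX1BP1B was 0.21 with the RPE score as a covariate (FDR 0.310) and 0.29 with the interferon score (FDR 0.0932, edgeR).

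CALCOCO1 is known as a receptor for parts of the endoplasmic reticulum and Golgi, and CALCOCO2 for bacteria and mitochondria in human cells. CALCOCO1 had 50.1, 56.1 and 69.7 CPM in the lowest, median and highest fish at 6 weeks, 52.1, 67.5 and 79.1 CPM at 12 weeks, and 49.2, 67.3 and 118 CPM at 18 weeks. Its log2FC at 18 against 6 weeks was 0.27 (SE 0.103, FDR 0.0429, edgeR). This call leaned on 18-week-old fish 1, which had the 118 CPM: without it the log2FC was 0.15 (FDR 0.142), and the FDR was also over 0.05 without 18-week-old fish 2, 3, 4, 5 or 6 or 6-week-old fish 1, 2, 3, 6, 9 or 10, at most 0.0766. With the RPE score as a covariate the log2FC was 0.07 (FDR 0.790, edgeR). The tested CALCOCO2 locus (XLOC_018674) had 3.74 to 12.2 CPM at 6 weeks, 7.14 to 17.1 CPM at 12 weeks and 7.98 to 14.2 CPM at 18 weeks, with a log2FC of 0.23 (SE 0.160, FDR 0.280, edgeR). The other CALCOCO2 locus (XLOC_003929) had 4 counts over all 30 fish, 3 at 6 weeks, 0 at 12 weeks and 1 at 18 weeks, and was not tested.

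At 12 against 6 weeks, 2 of 9 tested members (ZC3HDC1L and SQSTM1) were higher at an FDR under 0.05, against 1.30% of all tested loci higher and 0.909% lower, and the other 7 had an FDR of at least 0.177 (edgeR). Of the 9, ZC3HDC1L also passed the log2FC threshold, which 0.336% of all tested loci passed upwards, by a margin that RLE factors and DESeq2 did not keep. At 18 against 12 weeks SQSTM1 was the 1 member of 9 that was higher, against 5.19% of all tested loci higher and 6.93% lower, and 0 of 9 passed both thresholds, against 0.258% upwards.

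Because library size alone moved every member upwards, members were also set against NBR1 within each fish, which needs no scaling factor. This ratio was chosen after the values had been seen, and it measures unequal change, not that NBR1 stayed the same. Per 100 counts of NBR1, ZC3HDC1L had a median of 14.4 counts at 6 weeks, 21.0 at 12 weeks and 36.4 at 18 weeks. SQSTM1 had 8.54, 12.7 and 16.9 counts in the same order of ages, and OPTN had 5.85, 5.87 and 6.45. At 18 against 6 weeks the log2 ratio was higher by 1.49 for ZC3HDC1L and by 1.01 for SQSTM1 (adjusted permutation p = 0.00024 each, over 24 tests). At the same ages it was higher by 0.33 for TBK1 (adjusted permutation p = 0.0147) and by 0.27 for TAX1BP1B (adjusted permutation p = 0.0332). It differed by 0.29 for OPTN (adjusted permutation p = 0.182) and by 0.23 for CALCOCO1 (adjusted permutation p = 0.332), which did not pass. For CALCOCO1, 18-week-old fish 1 had 184 counts per 100 of NBR1, against a median of 69.2 at that age. At 12 against 6 weeks the ratio was higher for 5 of 8 members. The difference was 0.88 for ZC3HDC1L (adjusted permutation p = 0.0167), 0.61 for SQSTM1 (0.00804), 0.32 for TBK1 (0.0147), 0.29 for TAX1BP1B (0.0191) and 0.28 for CALCOCO1 (0.0253). The last 3 did not pass in the edgeR fit, where the adjustment runs over 13975 loci and not over 24 tests. Unadjusted, their edgeR p was 0.0151 for TBK1, 0.0121 for TAX1BP1B and 0.0241 for CALCOCO1. All 8 ratios share NBR1, whose own log2FC at these ages was -0.05. The ratio was not computed for other loci, so the count of 5 of 8 has no share of all loci to be set against. At 18 against 12 weeks it was higher for SQSTM1 alone of the 8, by 0.40 (adjusted permutation p = 0.00804).

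No relation of ZC3HDC1L or OPTN with another member passed the test from fish to fish. After the mean of each age was removed, none of 15 pairs of ZC3HDC1L or OPTN with another member had an adjusted permutation p under 0.05, and 3 pairs had an unadjusted one under 0.05 (ZC3HDC1L with CALCOCO2, and OPTN with TAX1BP1B and with CALCOCO1). ZC3HDC1L and OPTN had a within-age r of 0.30 and rho of 0.17 over 30 fish (permutation p = 0.167 for r and 0.395 for rho, adjusted 0.502 and 0.926). Without 12-week-old fish 2 and 7, r was 0.11.

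ZC3HDC1L followed the interferon response loci from fish to fish. The interferon score is the mean log2 CPM of 16 tested loci of an interferon response list that holds no member. Its lowest, median and highest values were 1.01, 1.60 and 1.99 at 6 weeks, 1.77, 2.35 and 4.07 at 12 weeks, and 2.36, 2.72 and 3.52 at 18 weeks. The 12-week-old fish 2 and 7, those with the most ZC3HDC1L at that age, had 4.07 and 3.85, the 2 highest scores. They also had the highest immune marker scores of their age (3.96 and 4.13, the other 8 at most 3.28) and the highest RPE marker scores (at least 5.86, the others at most 5.53), and the part of these cells in the result was not tested. With age means removed, r was 0.86 and rho 0.79 over 30 fish (permutation p = 1e-05 for each, the smallest that 100000 permutations give, and 9e-05 adjusted over 9 relations). Without fish 2 and 7 r was 0.77. Within the ages, over all 10 fish of each, r was 0.65 at 6 weeks, 0.92 at 12 weeks and 0.91 at 18 weeks. In the same order of ages rho was 0.55, 0.75 and 0.93. The 12-week values include fish 2 and 7.

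**Figure D3:**
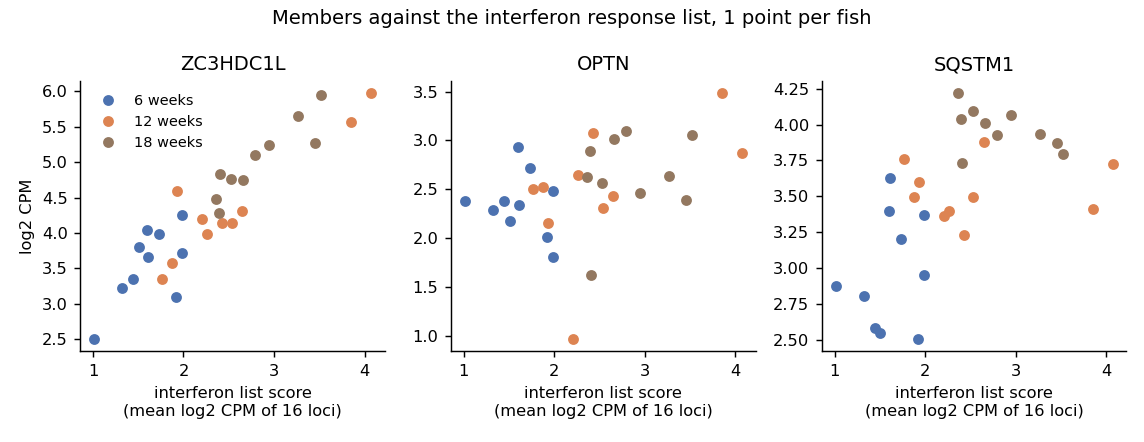
log2 CPM (y axis) of ZC3HDC1L, OPTN and SQSTM1 against the interferon score (x axis, mean log2 CPM of 16 loci) in each of 30 fish, with ages told apart by colour. ZC3HDC1L climbs with the score within each age (within-age r 0.86), with 12-week-old fish 2 and 7 at the right end, while SQSTM1 has a within-age r of 0.02.

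For OPTN and SQSTM1 no relation with the interferon score passed. For the interferon score, r was 0.35 and rho 0.18 for OPTN (permutation p = 0.138 and 0.358, adjusted 0.248 and 0.645), and r was 0.02 and rho 0.06 for SQSTM1 (permutation p = 0.911 and 0.754, adjusted 0.911 and 0.848). Age by age, r of SQSTM1 was 0.21 at 6 weeks, 0.08 at 12 weeks and -0.47 at 18 weeks, over 10 fish each. That the relations differ between members was not tested. With the interferon score as a covariate, the log2FC at 18 against 6 weeks was 0.27 for ZC3HDC1L (FDR 0.316) and 0.97 for SQSTM1 (FDR 0.000176, edgeR). The interferon scores at 6 weeks (at most 1.99) and at 18 weeks (at least 2.36) did not overlap, so this fit cannot separate age from the score. ZC3HDC1L also went with the immune marker score (r 0.49, rho 0.43, permutation p = 0.00861 and 0.0186, adjusted 0.0258 and 0.0468) and with the RPE marker score (r 0.69, rho 0.59, permutation p = 0.00018 and 0.00097, adjusted 0.00081 and 0.00437). For the immune score, r of ZC3HDC1L was 0.16 at 6 weeks, 0.87 at 12 weeks and 0.60 at 18 weeks, over 10 fish each. Without 6-week-old fish 8 and 12-week-old fish 7, its within-age r was 0.57. OPTN went with the RPE score by rank but not by r (rho 0.45, adjusted permutation p = 0.0468, and r 0.39, adjusted permutation p = 0.212). The RPE score itself was lower at older ages, with medians of 5.54 at 6 weeks, 4.78 at 12 weeks and 4.38 at 18 weeks. With the immune score as a covariate the log2FC of ZC3HDC1L at 18 against 6 weeks was 0.60 (FDR 0.236), and with the RPE score it was 2.61 (FDR 6.51e-10, edgeR).

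The loci whose within-age deviations were most like those of ZC3HDC1L were RNF213 (r 0.86), STAT1A (r 0.85), a locus with no gene symbol (NFU_G_1_007454, r 0.85), CT573318.1 (r 0.84) and ZNFX1 (r 0.84), as a description over 30 fish and all tested loci. RNF213 and ZNFX1 are large proteins of antimicrobial defence in mammals, and STAT1A encodes a transcription factor that carries interferon signals. Those most like OPTN were HSPBP1 (r 0.71), B3GNT1 (r 0.69), ZC3H4 (r 0.68), NFU_P_1_006930 (r 0.68) and COL4A3BPA (r 0.64). For SQSTM1 they were WBP2 (r 0.75), LDB1 (r 0.71), RNF141 (r 0.68), PRRT4 (r 0.68) and CYP2U1 (r 0.68). The locus ranked 100 had r 0.60 for ZC3HDC1L, 0.55 for OPTN and 0.49 for SQSTM1.

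The proteins that receptors bind on the membrane belong to the ATG8 family. Of its 5 loci, 3 were higher at 18 against 6 weeks and none was lower (FDR under 0.05, edgeR, 14.0% of all tested loci higher), with a median log2FC of 0.38. GABARAPA averaged 232 CPM at 18 weeks and 185 CPM at 6 weeks (log2FC 0.33, SE 0.0623, FDR 0.000124, edgeR). The others were GABARAPL2 (log2FC 0.49, SE 0.101) and MAP1LC3A (log2FC 0.39, SE 0.0917). None of the 5 passed at 12 against 6 weeks.

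Lists of mitophagy loci and of other cargo receptors had smaller medians. Of 13 loci that trigger or regulate mitophagy, 5 were higher at 18 against 6 weeks and 1 was lower, with a median log2FC of 0.14 (14.0% of all tested loci were higher and 15.2% lower). Those with the smallest FDR were the outer membrane receptors BNIP3LB (log2FC 0.34, FDR 0.00945) and FUNDC1 (XLOC_011838, 0.33, FDR 0.0105), and PARK2 (0.32, FDR 0.0277, edgeR), the ubiquitin ligase Parkin. The other FUNDC1 locus, XLOC_003814, averaged 172 CPM at 18 weeks and 146 CPM at 6 weeks (log2FC 0.24, FDR 0.100, edgeR). Of 11 other cargo receptors, 3 were higher and 1 lower, with a median log2FC of 0.21, counts near the 14.0% and 15.2% of all tested loci. Without 18-week-old fish 1, 1 was higher and 1 lower, and the median was 0.08. SEC62, a receptor for the endoplasmic reticulum, was lower (log2FC -0.20, FDR 0.0164), and FAM134C, another one (0.35, FDR 0.0224), and STBD1, a receptor for glycogen (0.61, FDR 0.0362, edgeR), were higher.

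Partners of TBK1 and optineurin were near the background. Of 21 loci, 16 were tested, of which 3 were higher and 2 lower at 18 against 6 weeks, against 14.0% and 15.2% of all tested loci, with a median log2FC of -0.07 (0.01 without 18-week-old fish 1). TNIP1 is carried by more than 1 locus and restrains inflammatory signalling by binding ubiquitin chains. Its locus XLOC_003023 averaged 2.52 CPM at 18 weeks and 5.33 CPM at 6 weeks (log2FC -1.09, SE 0.266, FDR 0.00192, edgeR). Its other tested locus, XLOC_001519, named after its values were seen, averaged 34.1 CPM at 18 weeks and 28.0 CPM at 6 weeks (log2FC 0.29, FDR 0.0289, edgeR), so the loci of this name passed in opposite directions. TBC1D15 (log2FC 0.39, FDR 0.00613) and TBC1D17 (0.37, FDR 0.0136, edgeR), regulators of the small GTPases that act in membrane traffic, were higher.

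Loci of the KEAP1-NRF2 axis, to which p62 is linked, included 3 higher and none lower of 9 tested of 16, with a median log2FC of 0.18 (14.0% of all tested loci higher, 15.2% lower). They were NQO1 (XLOC_013075), a quinone reductase (log2FC 0.52, FDR 0.000826), and GCLC (0.52, FDR 0.00147) and GCLM (0.50, FDR 0.0160, edgeR), the subunits of the enzyme that starts glutathione synthesis. In the PARP family, to which the name ZC3HDC1 points, 4 of 11 tested of 14 were higher and none lower, against the same 14.0% and 15.2%, with a median log2FC of 0.13. Without 18-week-old fish 1, 3 were higher and 1 lower. Those with the smallest FDR were PARP4 (log2FC 0.90, FDR 0.0216), PARP9 (0.56, FDR 0.0257), a partner in interferon signalling in mammals, and PARP2 (0.48, FDR 0.0433, edgeR), a DNA repair enzyme.

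Interferon response loci had the highest median log2FC of the 7 gene lists. Of 25 loci, 16 were tested, and 10 were higher at 18 against 6 weeks and none lower (14.0% and 15.2% of all tested loci), with a median log2FC of 1.15. Some of the 10 lay near the floor at 6 weeks, with a mean of 0.40 CPM for ISG15, 0.58 CPM for RSAD2 and 0.66 CPM for MOV10. At 18 weeks these averaged 11.8, 10.6 and 5.66 CPM. Such loci may have passed the count filter through the older fish alone, so the count and the median are a description. STAT2, which carries interferon signals to the nucleus, averaged 18.9 CPM at 18 weeks and 9.13 CPM at 6 weeks (log2FC 1.05, SE 0.155, FDR 2.69e-06, edgeR). The others with the smallest FDR were MOV10, an antiviral RNA helicase (log2FC 3.09, FDR 1.97e-05), and TRIM25 (XLOC_003053), a ubiquitin ligase of antiviral sensing (log2FC 1.99, FDR 0.000133, edgeR). At 12 against 6 weeks 8 of the 16 were higher and none lower (1.30% and 0.909% of all tested loci, median log2FC 0.99), and at 18 against 12 weeks 0 of 16 passed in either direction (median log2FC 0.01, edgeR). These counts turned on 12-week-old fish 2 and 7. Without both, 3 of 17 tested loci were higher at 12 against 6 weeks (median log2FC 0.55) and 6 of 17 at 18 against 12 weeks (median log2FC 0.63), and 11 of 17 at 18 against 6 weeks (median log2FC 1.25, edgeR). The share of all tested loci that passed without both fish was not counted.

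**Figure D4:**
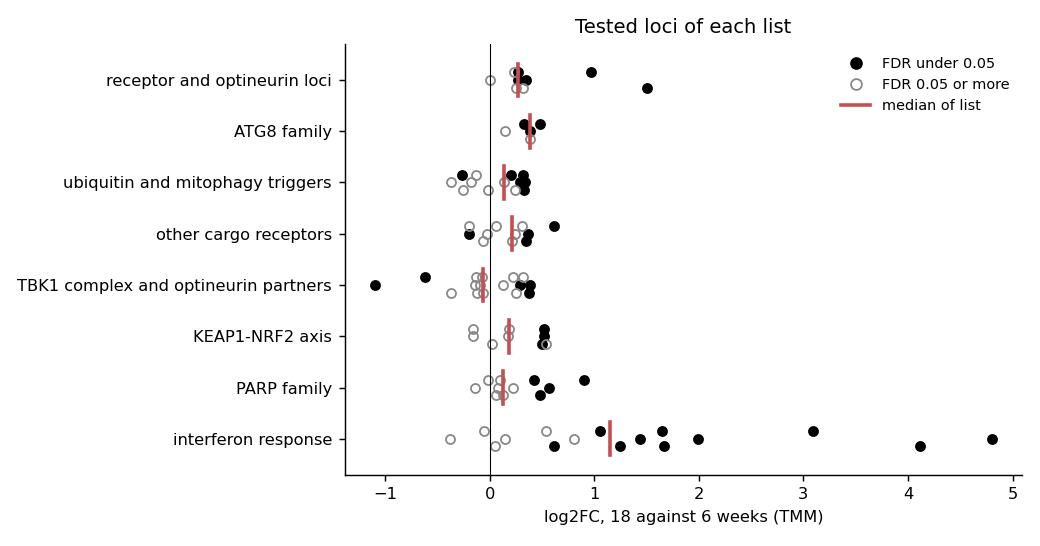
log2FC at 18 against 6 weeks (x axis) of each tested locus in the members and in 7 lists of related genes (rows); points are loci, black where the FDR was under 0.05, and the bars mark the median of each list. The interferon response list has the highest median (1.15), the members have a median of 0.27, and partners of TBK1 and optineurin lie around 0 (median -0.07).

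The deposited annotation also gives, as the authors' value over 39140 retinal single cells, the percentage of cells in which a locus was detected. It was 7.30% for ZC3HDC1L, 4.86% for OPTN, 11.0% for SQSTM1, 14.0% for TBK1, 24.9% for NBR1, 31.3% for TAX1BP1B and 20.9% for CALCOCO1. It was 0.0128% for the CALCOCO2 locus that had too few counts to be tested here and 3.05% for the tested one.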

How the data were processed

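Retinal QuantSeq 3′ RNAseq of 30 fish was analysed, grouped by age from the sample labels. Per the labels and the study's methods, the authors trimmed reads with Trim Galore 0.6.7 (cutadapt 3.4), mapped them with STAR 2.7.0 to a custom-built transcriptome and deposited counts per locus from HTSeq 0.11.2, without normalization. The strand setting is not given in the sources used here. Gene names and a pooled percent of single cells with the locus came from the authors' deposited annotation.

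Categories naming no locus were left out (reads on no feature 18.0% to 27.7% of reads listed). Loci passing filterByExpr (13975 of 24989) were fitted over all 30 fish with edgeR 4.0.16 (glmQLFit, TMM factors, 1 coefficient per age), with Benjamini-Hochberg adjustment over all tested loci. The thresholds were an FDR under 0.05, alone or with an absolute log2FC of at least 1. The fit was tested on simulated data. Log2 CPM used a prior count of 2. Correlations and ratios used 100000 permutations, two-sided, within ages for correlations.

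Members and lists were chosen with earlier results of these data known. Named were every member, up to 3 list loci with the smallest FDR at 18 against 6 weeks, and the 5 loci most like ZC3HDC1L, OPTN and SQSTM1. The scores' correlations, the ratio to NBR1, the interferon covariate the joint removal of 12-week-old fish 2 and 7 and the list counts without these or 18-week-old fish 1 were added after seeing the data. The alternatives were library size alone, RLE factors, DESeq2 1.42.0, other filters, robust quasi-likelihood, fits of 2 ages, the replicate number as a block, marker scores as covariates and leaving out each fish. RefSeq symbols matched 7 of 10 members. Counts carry counting error beside the spread between fish.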

Additional observations from a re-analysis of the deposited data

Results flagged for a closer look

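CALCOCO1 held both values that stood far from the others of their age among 27 groups of 10 fish, where chance flags about 1 in 20 groups. In 18-week-old fish 1 CALCOCO1 had 118 CPM, against 70.7 CPM in the next highest fish of that age. This library also had 1.85% ambiguous reads, against at most 1.27% in every other fish. In 12-week-old fish 7 CALCOCO1 had 52.1 CPM, against 65.3 CPM in the next lowest. This rule can miss high fish that lie near each other. It did not flag ZC3HDC1L in 12-week-old fish 2 (62.2 CPM) and fish 7 (47.0 CPM).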

How the results depend on the processing

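Of 9 tested members, 5 had an FDR under 0.05 at 18 against 6 weeks (edgeR), and 9 with library size alone, 3 with the RPE score, 3 with the immune score and 2 with the interferon score as a covariate. At 12 against 6 weeks the count was 2, and 4 with library size alone, 1 with the RPE score, 0 with the immune score, 0 with the interferon score, 1 with robust quasi-likelihood and 1 without 12-week-old fish 2 and 7. At 18 against 12 weeks it was 1 (SQSTM1, and ZC3HDC1L in its place with the RPE score), and 2 with library size alone or without those fish. Leaving out 1 fish gave 4 to 5, 0 to 2 and 1 to 2 members in these comparisons. The share of all tested loci past this FDR was counted only with TMM factors, all fish and no covariate. Member and list counts of the other fits thus have no such share to be set against. The sign of the ZC3HDC1L log2FC turned at 12 against 6 weeks with the interferon score, to -0.10 (FDR 0.863). With the same score the OPTN log2FC turned at 18 against 6 weeks, to -0.08 (FDR 0.873, edgeR). The causes were not tested.

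Past both thresholds were 467 loci at 18 against 6 weeks (979 with no filter, 434 to 539 without 1 fish), 70 at 12 against 6 weeks (115 with the RPE score, 117 with the interferon score, 61 to 96 without 1 fish) and 143 at 18 against 12 weeks (240 with no filter, 121 to 173 without 1 fish). With library size alone 82.5% of calls at 18 against 6 weeks were higher, against 39.2%. With DESeq2, RLE factors and other filters no member changed direction or side of the FDR threshold.

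Fish numbers recur at each age but mark different animals. Same-numbered fish had deviations correlated between -0.11 and 0.19. Of 30 fish, 6 were most like a fish of their own number, a count that was not set against chance. Whether a number marks shared handling was not tested. With the replicate number as a block, 4 members passed at 18 against 6 weeks and 1 at 12 against 6 weeks (SQSTM1, log2FC 0.54, FDR 0.0441). ZC3HDC1L did not pass at 12 against 6 weeks in that fit (log2FC 0.86, FDR 0.0705, edgeR). The CALCOCO2 locus XLOC_003929 had 0 to 2 counts per fish, too few to test, and OPTN 6 to 46.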
